A study of Mus musculus with 22 samples.

Results

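The 9 genes described here encode proteins that the liver puts into lipoproteins, or that build those particles: Apoa1, Apoa2, Apoa4, Apoa5, Apob, Apoc2, Apoc3, Apoe and Mttp. They were chosen by name, and all 9 are among the 24475 genes of the deposited table. The 22 liver mRNA libraries came from mice of 2 genotypes, wild type (WT) and Gcg KO, which lack the gene for the hormone glucagon. Each genotype had 3 libraries with no infusion, 4 with an infusion of glucagon (Gcg) at 30 µg/d and 4 with 150 µg/d. The age, sex, strain and construct of the mice are not in the labels, nor is the duration of the infusion, and the groups without infusion are not described as having received a vehicle. The series asks what glucagon contributes to the division of work between zones of the liver lobule. Values are RPKM, that is, reads divided by transcript length and by the library's read total, so levels can be compared between genes. Libraries are called by their running number in the labels, 1 to 22. The labels do not say that each library is a separate mouse, so a p-value sets a difference against the spread of libraries, which may be technical.

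Lipoproteins carry fat and cholesterol through the blood. In hepatocytes, microsomal triglyceride transfer protein (Mttp) loads lipid onto apolipoprotein B, and the particle leaves the cell as very-low-density lipoprotein (VLDL). Apolipoproteins A-I and A-II form high-density lipoprotein (HDL), and the exchangeable apolipoproteins C-II, C-III, A-IV, A-V and E move between particles and steer their lipolysis and uptake. Glucagon acts on hepatocytes through a receptor that raises cAMP.

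The genes sit mostly in clusters. On chromosome 9, Apoa1 (chr9:46228630-46230469), Apoc3 (chr9:46233050-46235636), Apoa4 (chr9:46240844-46243458) and Apoa5 (chr9:46268608-46271921) lie within 43.3 kb. On chromosome 7, Apoc2 (chr7:19671579-19677941) and Apoe (chr7:19696244-19701310) lie within 29.7 kb, with Apoc4 and Apoc1 between them. Apoa2 (chr1:171221564-171226379), Apob (chr12:7977629-8016839) and Mttp (chr3:138089855-138143418) stand alone. Coordinates are those of RefSeq on GRCm38.p6, the assembly whose build, GRCm38, the submitters name.

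The promoters below are those of Apoa4 and Mttp, the genes that passed a test, and of Apoa1, a neighbour of Apoa4 in the cluster. Each is the 250 bases before the start site in RefSeq, 5′ to 3′ along the transcript, at chr9:46240594-46240843 on the plus strand (Apoa4), chr3:138143419-138143668 on the minus strand (Mttp) and chr9:46228380-46228629 on the plus strand (Apoa1). Capitals mark a match to CAAAGTNCA, a form of the element bound by the nuclear receptor HNF4, in Apoa4, and to TGACG on the opposite strand, a core of the cAMP response element, in Mttp.
Apoa4: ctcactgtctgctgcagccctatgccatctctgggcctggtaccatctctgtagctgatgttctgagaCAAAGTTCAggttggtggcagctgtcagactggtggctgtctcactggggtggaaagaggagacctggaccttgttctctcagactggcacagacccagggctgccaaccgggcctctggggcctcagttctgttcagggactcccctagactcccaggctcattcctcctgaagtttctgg
Mttp: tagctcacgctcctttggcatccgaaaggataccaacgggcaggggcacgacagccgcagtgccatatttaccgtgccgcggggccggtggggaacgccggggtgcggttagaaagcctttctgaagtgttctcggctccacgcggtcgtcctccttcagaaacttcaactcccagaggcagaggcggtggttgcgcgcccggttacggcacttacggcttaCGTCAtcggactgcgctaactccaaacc
Apoa1: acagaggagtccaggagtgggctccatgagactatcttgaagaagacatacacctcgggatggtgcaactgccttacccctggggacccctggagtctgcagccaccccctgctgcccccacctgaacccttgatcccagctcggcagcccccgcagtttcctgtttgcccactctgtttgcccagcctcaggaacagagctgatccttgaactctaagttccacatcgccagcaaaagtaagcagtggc

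The following 6 motifs were looked for on both strands of the 300 bases from 250 before to 50 after each start site, in 12 windows of 8 of the genes (Apoc3 had none) and in 32851 windows of all genes. CAAAGTNCA was in 1.41% of all windows and in 1 of the 12, that of Apoa4, where its first base lies at position −182 from the start site. That form of the motif was chosen after the sequence was seen. TGACG was in 20.81% of all windows and in 3 of the 12, from Apoa2, Apoc2 and Mttp, at position −28 in Mttp. The full cAMP response element TGACGTCA, which contains TGACG, was in 1.79% of all windows and in 0 of the 12. AGGTCA, a nuclear receptor half-site, was in 16.26% of all windows and in 2 of the 12, from Apoa2 and Apoc2. TGTTTAC, a forkhead element, was in 3.65% and in 2 of the 12, from Apoa2 and Apoe. TATAAA was in 13.62% and in 5 of the 12, from Apoa2, Apoa5, Apob and Apoe. Some genes have more than 1 window, and not every window of a named gene matched. A match in these windows is a match of letters, and binding was not measured.

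Together the 9 genes held 3.81 to 5.68% of the RPKM sum of a library, with a median of 4.82%. Apoe, the ligand by which remnant particles are taken up, was the highest at a mean of 11748 RPKM over the 22 libraries, which ranks 4 of 24475 genes. Apoa2 followed at 7497 RPKM (rank 8) and Apoa1 at 5995 RPKM (rank 13). Apoc3, an inhibitor of lipolysis, averaged 1330 RPKM, Apob 641 RPKM and Apoa5, which promotes lipolysis, 404 RPKM. Mttp averaged 83.6 RPKM, Apoa4 60.0 RPKM and Apoc2, the cofactor of lipoprotein lipase, 32.3 RPKM. The level of Apoc2 and its place in this order leave out a read-through row that also covers it, described below. Of the sum of both rows, Apoc2 held 4.47 to 29.1%. Apoe was above Apoa2 in 22 of 22 libraries, Apoa1 above Apoc3 in 22, Apoc3 above Apob in 22 and Apoa5 above Mttp in 22. Neighbours whose order was not the same in every library were Apoa2 and Apoa1 (20 of 22), Apob and Apoa5 (21), Mttp and Apoa4 (20) and Apoa4 and Apoc2 (16). The spread within groups also differed between the genes: the coefficient of variation was 6.97% for Apoe and 83.8% for Apoa4. For Apoa4 that value rests on the uninfused KO group, at 95.1%, and the other groups had 8.85 to 41.5%.

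**Figure D1:**
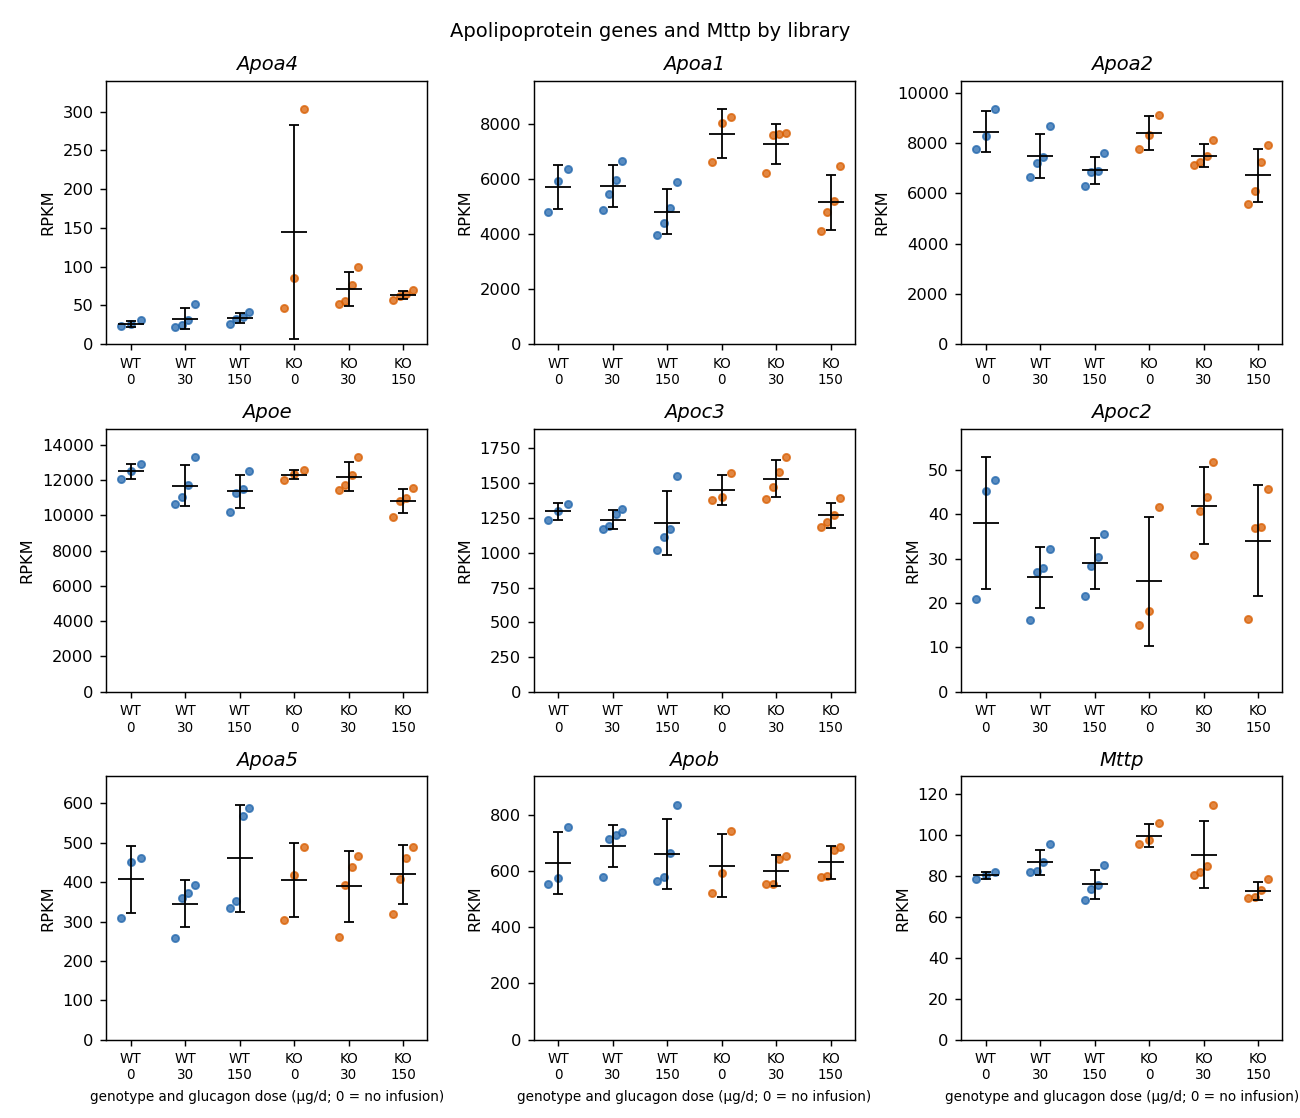
RPKM of each of the 9 genes on the vertical axis (linear, from 0) for the 6 groups on the horizontal axis, labelled by genotype and glucagon dose in µg/d. Points are libraries (blue WT, orange KO) and bars give the mean ± SD; the uninfused KO group of Apoa4 spans 47.15 to 303.3 RPKM, while Apoe stays between 9907 and 13305 RPKM in all 22 libraries.

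Facts of the libraries bear on several values below. An estimated 11.12 to 17.74 M reads lie behind each library, and Spearman's rho between replicates, across genes, was 0.963 to 0.974. The Gcg row is at 0 throughout, also in the 11 WT libraries, so the liver values do not check the genotype. Summed over 7 hepatocyte markers, the level was 38318 to 72492 RPKM. Alb alone ranged from 17414 to 53681 RPKM, and the mean log2(RPKM + 1) of the 7 markers was 11.82 to 12.28. Library 4 (uninfused KO) and library 13 (KO at 30 µg/d) stood apart from the rest in sex-biased genes. The mean log2(RPKM + 1) of 14 male-biased liver genes was 4.26 in library 4 and 5.56 in library 13, and 7.16 to 8.93 in the other 20. Of 12 female-biased genes it was 4.31 and 2.54 in these libraries and at most 1.22 in the others. The calls that rest on library 4 or 13 are given with and without them. In library 5 (uninfused KO) 6 blood markers summed to 2451 RPKM, and in the others to 322 to 1229 RPKM. Its 4 adipose markers summed to 10.9 RPKM, and those of the others to at most 3.07 RPKM. In whole liver, a change in the number of cells of a type and in RNA per cell cannot be told apart.

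Apoa4, which encodes apolipoprotein A-IV, was higher in Gcg KO liver than in WT liver without infusion, and was the 1 gene of the 9 called in that comparison. Genes were called at an adjusted p under 0.05 by limma on log2(RPKM + 1), with Benjamini-Hochberg adjustment over 11590 genes; 1.54% of all tested genes were called, and 0.794% were called higher. In the uninfused WT libraries Apoa4 was at 30.83, 25.39 and 23.22 RPKM (mean 26.5 ± 3.92, SD, n = 3). In the uninfused KO libraries 4, 5 and 6 it was at 303.3, 47.15 and 85.45 RPKM (mean 145.3 ± 138, SD, n = 3). Each KO library lay above each WT library, but library 4 was more than the other two together. The log2 fold change was 1.99 ± 0.44 (SE; limma adjusted p = 0.0306). Without library 4 it was 1.24 ± 0.31 and the adjusted p 0.115, and the call also ended without library 1, 2 or 3, where the adjusted p was 0.0678, 0.0952 and 0.144, with no filter on low values (0.0507) and with the 2 groups fitted alone (0.178).

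Apoa4 was also above WT in both KO groups given glucagon, though neither difference passed the adjustment. At 30 µg/d, Apoa4 was at 52.24, 22.40, 24.95 and 31.09 RPKM in WT and at 52.33, 76.14, 99.83 and 56.13 RPKM in KO. At 150 µg/d it was at 25.88, 35.03, 32.99 and 41.84 RPKM in WT and at 70.20, 64.17, 61.75 and 56.73 RPKM in KO. In both comparisons the KO libraries were all above the WT libraries; at 30 µg/d the margin was 52.33 against 52.24 RPKM. The log2 fold change was 1.13 ± 0.38 at 30 µg/d (limma unadjusted p = 0.00765, adjusted p = 0.228). At 150 µg/d it was 0.89 ± 0.38 (limma unadjusted p = 0.029, adjusted p = 1). Both SE rest on a spread fitted over all 6 groups. That spread takes in the uninfused KO group with library 4, which is in neither comparison. Of all tested genes, 0.328% were called at 30 µg/d and 0.0259% at 150 µg/d, and 0 of the 9 at either. Of all tested genes, 6.32% had groups that did not overlap at 30 µg/d and 1.48% at 150 µg/d; among the 9 genes these were Apoa4 and Apoc3 at 30 µg/d and Apoa4 at 150 µg/d.

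These 3 comparisons share no library, and a contrast averaging them was added after the values were seen. Averaged over no infusion, 30 and 150 µg/d, Apoa4 was 2.53-fold higher in KO (log2 fold change 1.34 ± 0.23, limma adjusted p = 0.00539). It was called in all of the alternatives run, also when any single library was left out, with a log2 fold change between 1.09 and 1.53, and without libraries 4 and 13 it was 1.03 ± 0.15 (adjusted p = 0.0017). In that contrast 2.2% of all tested genes were called, and Apoa4 was the 1 gene of the 9. Apoa1 was next among the 9 by p, with a log2 fold change of 0.29 ± 0.10 (adjusted p = 0.126), followed by Apoc3 with 0.18 ± 0.07 (adjusted p = 0.185).

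No change of Apoa4 with infusion passed the test in either genotype. In KO liver the log2 fold change was −0.63 ± 0.41 at 30 µg/d and −0.76 ± 0.41 at 150 µg/d (limma adjusted p = 0.618 and 0.335). Without library 4 these were 0.11 and −0.01. In WT liver they were 0.23 ± 0.41 and 0.34 ± 0.41. The difference in the response between genotypes was −0.86 ± 0.58 at 30 µg/d (adjusted p = 0.678) and −1.09 ± 0.58 at 150 µg/d (adjusted p = 0.527), with 95% intervals of −2.07 to 0.35 and −2.30 to 0.12.

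**Figure D2:**
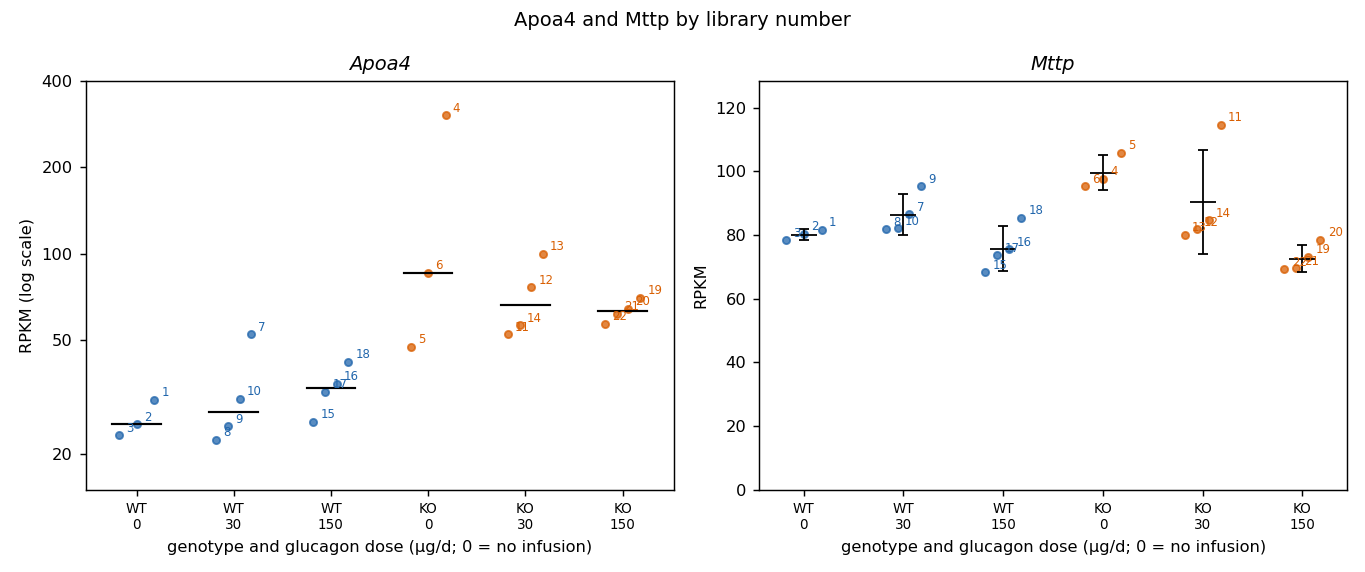
RPKM of Apoa4 (log axis; bars are group medians) and of Mttp (linear axis from 0; bars are means ± SD) for the 6 groups by genotype and glucagon dose in µg/d, each point a library with its number. For Apoa4, 1 KO library (5, at 47.15 RPKM) lies below the highest WT library (7, at 52.24 RPKM); for Mttp, the uninfused KO libraries lie at 95.25 to 105.8 RPKM and those at 150 µg/d at 69.18 to 78.41 RPKM.

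Marker genes of other liver cells moved with Apoa4 in part of the comparisons. Of 10 stellate cell and fibroblast markers, 10 were positive in KO against WT averaged over doses, and 3 were called higher (Rgs5, Col1a2 and Hand2), beside 2.2% of all tested genes called. Without libraries 4 and 13, an alternative added after seeing the data, Col1a2 and Hand2 were called (adjusted p = 0.0283 and 0.019) and Rgs5 was not (0.081); without library 4 alone Col1a2 was called (0.0262) and Rgs5 and Hand2 were not (0.0717 and 0.0608). The summed level of this list was 91.1 to 102 RPKM in uninfused WT and 126 to 129 RPKM in uninfused KO, 90.2 to 122 and 119 to 140 RPKM at 30 µg/d, and 103 to 123 and 124 to 130 RPKM at 150 µg/d. Across the 22 libraries, which share the 6 groups, its mean had a Pearson r of 0.742 with Apoa4, and 0.837 without library 4. Of 6 cholangiocyte markers 3 were tested, and Spp1 was called higher in the averaged contrast (1.49, adjusted p = 0.0296; 1.64 and 0.03 without library 4). The sum of that list was 16.4 to 32.8 RPKM in uninfused WT and 60.3 to 177 RPKM in uninfused KO, 18.2 to 31.1 and 32.5 to 214 RPKM at 30 µg/d, and 19.5 to 67.7 and 23.0 to 98.8 RPKM at 150 µg/d. Krt7, Epcam and Cftr had means under 0.5 RPKM and Krt19 was at most 1.35 RPKM, so the sum rests mostly on Spp1 and Sox9. Epcam averaged 0.41 RPKM in WT and 0.51 in KO without infusion, 0.52 and 0.36 at 30 µg/d, and 0.51 and 0.33 at 150 µg/d. The mean log2(RPKM + 1) of the list was 1.05 to 1.24 in uninfused WT and 1.35 to 1.71 in uninfused KO. Its r with Apoa4 was 0.411, and 0.598 without libraries 4 and 13.

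Endothelial and Kupffer cell markers had higher values in KO in uninfused liver. At 150 µg/d the Kupffer median was below 0, and the endothelial median was close to that over all tested genes (−0.0082). The difference between doses was not tested. Positive values in KO against WT were found for 9 of 10 sinusoidal endothelial markers without infusion, for 8 with the lower dose and for 5 with the higher dose, with median log2 fold changes of 0.34, 0.10 and −0.01. Pecam1, Stab2 and Lyve1 were called higher in uninfused KO, beside 1.54% of all tested genes, and were not called without library 4 (adjusted p = 0.126, 0.195 and 0.212). Averaged over doses, Lyve1 and Gpr182 were called, and without libraries 4 and 13 Lyve1 was called (adjusted p = 0.00666) and Gpr182 was not (0.111). The r of the endothelial mean with Apoa4 was 0.738, and 0.649 without library 4. The endothelial sum was 131 to 139 RPKM in WT and 165 to 172 RPKM in KO without infusion, 132 to 172 and 147 to 176 RPKM at 30 µg/d, and 139 to 158 and 148 to 158 RPKM at 150 µg/d. Of 12 Kupffer cell and macrophage markers, 12 were positive without infusion, 9 at 30 µg/d and 0 at 150 µg/d (medians 0.50, 0.16 and −0.20), and 0 were called. Their sum was 207 to 280 RPKM in WT and 323 to 335 RPKM in KO without infusion, 183 to 380 and 259 to 304 RPKM at 30 µg/d, and 236 to 354 and 203 to 351 RPKM at 150 µg/d.

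The 14 male-biased genes had an r of −0.652 with Apoa4 over all libraries, −0.292 without library 4 and 0.054 without libraries 4 and 13. For enterocytes, a main source of Apoa4 outside the liver, 7 of 8 markers fell under the minimum of 0.5 RPKM, Alpi and Sis were listed at 0 in all 22 libraries, and the 1 tested, Fabp2, was not called. Apart from the values without library 4 or 13, the part these measures have in the Apoa4 result was not tested.

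**Figure D3:**
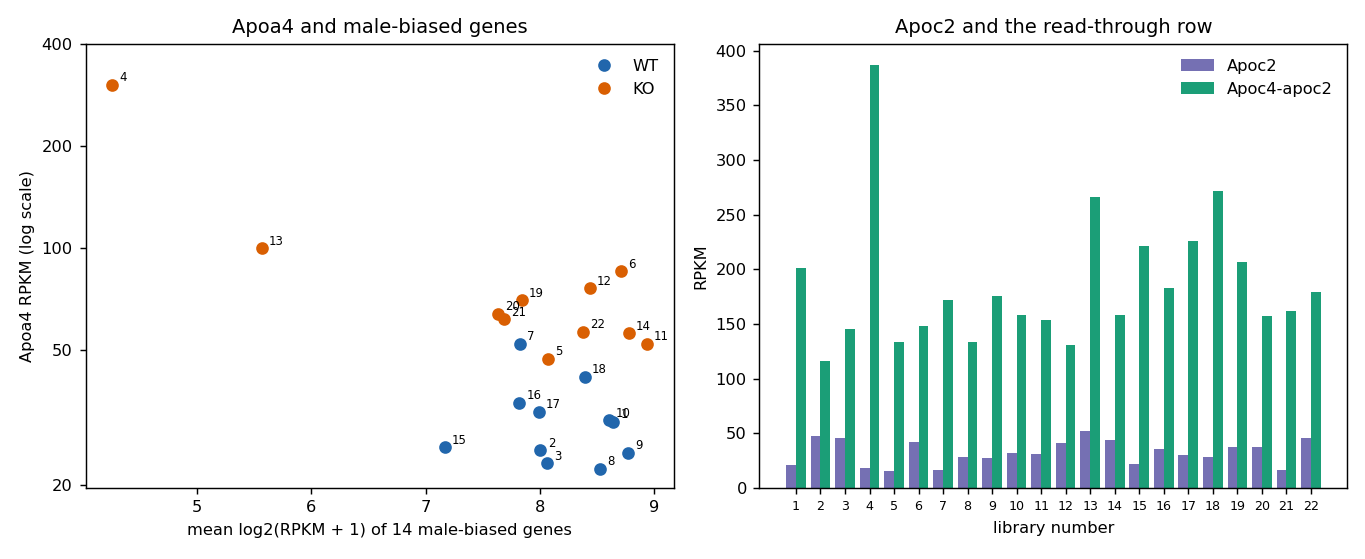
Left, Apoa4 RPKM (log axis) against the mean log2(RPKM + 1) of 14 male-biased genes, each point a library with its number (blue WT, orange KO); libraries 4 and 13 lie at 4.26 and 5.56, apart from the rest, and the KO libraries are mostly above the WT ones at the same mean. Right, RPKM of Apoc2 (purple) and of the read-through row that covers Apoc4 and Apoc2 (green) in each of the 22 libraries; the read-through row is the higher in each, with 386.8 RPKM in library 4.

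Over the 22 libraries, the genes whose levels followed Apoa4 most closely by Pearson r, among 9967 candidates, were Smoc2 (0.889), Lyve1 (0.858) and Galk1 (0.858). Without library 4 these were 0.812, 0.793 and 0.713. Within the chromosome 9 cluster, r between Apoa4 and Apoa1 was 0.428 over the 22 libraries, and 0.001 after the group means were removed; with Apoa5 it was 0.348 and with Apoc3 0.171 within groups. The most negative r within groups in the whole set was between the cluster's outer genes, Apoa1 and Apoa5, at −0.698. The highest was between Apoa2 and Apoe, at 0.658. These are descriptions over libraries that share the 6 groups.

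Mttp, which loads lipid onto apolipoprotein B, fell in KO liver with the infusion of 150 µg/d, and was the 1 gene of the 9 called in that comparison, where 2.72% of all tested genes were called and 1.41% were called lower. In uninfused KO it was at 97.59, 105.8 and 95.25 RPKM (mean 99.5 ± 5.52, SD, n = 3), and at 150 µg/d at 73.16, 78.41, 69.52 and 69.18 RPKM (mean 72.6 ± 4.29, SD, n = 4). The groups did not overlap. The log2 fold change was −0.45 ± 0.11 (limma adjusted p = 0.0299). The call ended under median-of-ratios scaling (adjusted p = 0.0552), without library 4, 5, 21 or 22 (0.0942, 0.105, 0.0816 and 0.0912), without libraries 4 and 13 (0.0742) and with the 2 groups fitted alone (0.144), with the log2 fold change between −0.49 and −0.40 in all of the alternatives run.

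Kupffer cell and endothelial markers had lower values in the same comparison, while stellate cell and fibroblast markers as a list did not. Of the 10 stellate cell and fibroblast markers, 5 were positive and 0 were called (median 0.06). Their sum was 126 to 129 RPKM in uninfused KO and 124 to 130 RPKM at 150 µg/d. Of 12 Kupffer cell and macrophage markers 0 were positive and 0 were called (median −0.27), and of 10 endothelial markers 1 was positive (median −0.23), with Pecam1 called lower (−0.35, limma adjusted p = 0.0297; 0.122 without library 4). Endothelial sums went from 165 to 172 RPKM in uninfused KO to 148 to 158 RPKM at 150 µg/d, and Kupffer sums from 323 to 335 RPKM to 203 to 351 RPKM. Over the 22 libraries Mttp had an r of 0.531 with the endothelial mean and 0.241 with the Kupffer mean. Their part in the Mttp result was not tested.

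The uninfused KO libraries of that comparison also lay above the uninfused WT libraries. Uninfused WT liver had Mttp at 81.60, 80.40 and 78.35 RPKM, and KO against WT gave 0.31 ± 0.11 (limma adjusted p = 0.159). Both comparisons use the same 3 KO libraries. In WT, 150 µg/d gave 68.32, 75.44, 73.59 and 85.38 RPKM and a log2 fold change of −0.09 ± 0.11 (adjusted p = 0.802); the difference between the genotypes in this response was −0.37 ± 0.15 (unadjusted p = 0.0249, adjusted p = 0.421). At 30 µg/d Mttp was at 114.6, 81.72, 80.06 and 84.61 RPKM in KO and at 86.53, 81.78, 95.28 and 82.11 RPKM in WT. The log2 fold change against no infusion was −0.15 ± 0.11 in KO and 0.11 ± 0.11 in WT, neither of which passed the test. The genes whose levels followed Mttp most closely were Simc1 (r 0.875), Acvr1 (0.828) and Shroom2 (0.827); without library 4 these were 0.864, 0.831 and 0.821.

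Apob, the structural protein of VLDL, did not pass any test. It was at 575.8, 756.4 and 554.3 RPKM in uninfused WT and at 592.1, 743.9 and 523.2 RPKM in uninfused KO, with a log2 fold change of −0.02 ± 0.16 and a 95% interval of −0.36 to 0.32. In KO at 150 µg/d, where Mttp fell, Apob was at 580.4, 582.0, 676.1 and 685.9 RPKM (0.04 ± 0.15, interval −0.28 to 0.35). Within groups Apob and Apoc3 had an r of −0.534.

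The HDL genes Apoa1 and Apoa2 had lower means at 150 µg/d in both genotypes, without passing the threshold. Apoa1, the main protein of HDL, was at 8039, 8268 and 6618 RPKM in uninfused KO and at 6468, 5192, 4816 and 4114 RPKM in KO at 150 µg/d. The groups did not overlap, the log2 fold change was −0.58 ± 0.17 and the limma adjusted p 0.0729. It was called with array weights (−0.69, adjusted p = 0.0134) and without library 19 (−0.70, adjusted p = 0.0241). Without library 4 it was −0.54 (adjusted p = 0.218), under quantile normalization −0.44 (0.143) and with the 2 groups fitted alone −0.58 (0.249). Against KO at 30 µg/d, with 7667, 7624, 6203 and 7616 RPKM, it was −0.51 ± 0.16 (adjusted p = 0.15). In WT, Apoa1 was at 6361, 4810 and 5920 RPKM without infusion and at 3981, 4962, 5888 and 4414 RPKM at 150 µg/d (−0.25 ± 0.17, adjusted p = 0.58). Without infusion, KO against WT gave 0.43 ± 0.18 (adjusted p = 0.226), again without overlap; groups did not overlap for 24.8% of all tested genes there, and for 4 of these 9 (Apoa1, Apoa4, Apoc3 and Mttp).

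Apoa2, the second protein of HDL, was at 7741, 8283 and 9342 RPKM in uninfused WT and at 6865, 7618, 6303 and 6864 RPKM at 150 µg/d in WT (−0.29 ± 0.13, limma adjusted p = 0.399). In KO the values were 8330, 9093 and 7762 RPKM without infusion and 7918, 7227, 6103 and 5589 RPKM at 150 µg/d (−0.33 ± 0.13, adjusted p = 0.19; −0.34 and 0.368 without library 4). Averaged over genotypes, which was added after the values were seen, 150 µg/d gave −0.42 ± 0.12 for Apoa1 (adjusted p = 0.0528), −0.31 ± 0.10 for Apoa2 (0.0685) and −0.27 ± 0.08 for Mttp (0.0473), with 4.52% of all tested genes called. Of 7 hepatocyte markers in that contrast, 2 were positive and 1, Ttr, was called lower (−0.45, limma adjusted p = 0.0268). Without library 4 Ttr was not called (0.0556). The median of the 7 was −0.05, beside −0.03 over all tested genes. The Mttp call there ended with no filter on low values, under each of the other scalings and without libraries 4 and 13. It also ended without any one of libraries 1 to 6, 15, 16, 17, 21 and 22, with an adjusted p of 0.0576 to 0.106 in these.

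Apoc3, Apoa5, Apoc2 and Apoe govern the lipolysis and uptake of particles, and none was called. Apoc3 was at 1579, 1689, 1475 and 1385 RPKM in KO at 30 µg/d and at 1277, 1315, 1171 and 1194 RPKM in WT at that dose (0.30 ± 0.11, limma adjusted p = 0.27), without overlap. Apoa5 ranged from 258.4 to 589.6 RPKM over the 22 libraries, and its log2 fold changes in the 5 comparisons of genotype and dose lay between −0.23 and 0.15. Apoe, with the smallest spread of the 9, was at 12574, 12025 and 12319 RPKM in uninfused KO and at 10952, 11527, 10800 and 9907 RPKM in KO at 150 µg/d (−0.19 ± 0.12, adjusted p = 0.391). Those groups did not overlap, as was so for 3 of the 9 (Apoa1, Apoe and Mttp) and for 13.5% of all tested genes. Over the alternatives run, this log2 fold change of Apoe lay between −0.22 and 0, so its size depends on the setting. Without infusion, Apoe differed between genotypes by −0.02 ± 0.12, with an interval of −0.28 to 0.24.

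Apoc2 has a limit of its own. The table holds a second row, Apoc4-apoc2, a read-through transcript (chr7:19671579-19681460) that covers Apoc2 and Apoc4 entirely, so reads of Apoc2 could be credited to either. Apoc2 was 4.47 to 29.1% of the sum of both rows. Apoc2 was at 18.12, 15.03 and 41.60 RPKM in uninfused KO and at 30.86, 40.80, 51.81 and 43.88 RPKM in KO at 30 µg/d (0.84 ± 0.36, limma adjusted p = 0.445). With the read-through row added, an alternative chosen after seeing the data, that change was −0.09, and the difference between the genotypes' responses at 30 µg/d went from 1.34 (unadjusted p = 0.0172) to −0.04. No direction is given for Apoc2.

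**Figure D4:**
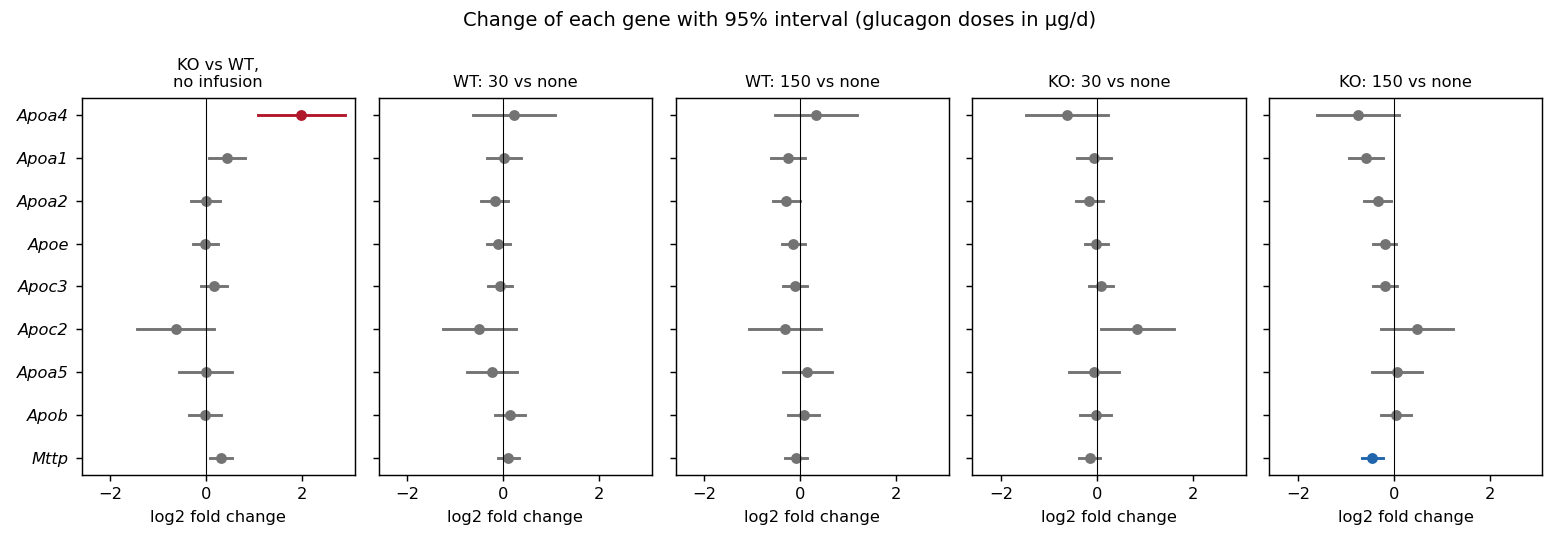
Log2 fold change of each of the 9 genes (points) with its 95% interval (lines) in 5 comparisons: KO against WT without infusion, and glucagon at 30 or 150 µg/d against none in each genotype. Red is called higher (Apoa4, 1.99) and blue is called lower (Mttp, −0.45); all other intervals are grey.

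Across the 5 comparisons of genotype and dose, 1, 0, 0, 0 and 1 of the 9 genes were called (KO against WT, 30 and 150 µg/d in WT, 30 and 150 µg/d in KO). The counts at an unadjusted p under 0.05 were 3, 0, 1, 1 and 3. In the first and last of these 17.5% and 18.4% of all tested genes had such a p. Of all tested genes, 0% were called at 30 µg/d in WT, 0.293% at 150 µg/d in WT and 0.0863% at 30 µg/d in KO, and 5.67%, 12.1% and 10.1% had an unadjusted p under 0.05. The median log2 fold change of the 9 genes was −0.01, −0.07, −0.11, −0.06 and −0.19, beside 0.01, −0.01, −0.02, −0.02 and −0.04 over all tested genes.

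The wider pathway was read from lists of genes chosen by name. In the 5 comparisons, 0 of 8 other apolipoproteins, 0 of 8 genes of plasma lipolysis and 0 of 21 transcription regulators were called. At 150 µg/d in KO, where the 3 list genes below were called, 2.72% of all tested genes were. Of 20 genes of particle assembly and export, 1 fell, Sar1b, a GTPase of the vesicles that carry particles from the endoplasmic reticulum, at 150 µg/d in KO (112 to 79.5 RPKM, −0.48 ± 0.11, limma adjusted p = 0.0278). Of 8 genes of HDL assembly and remodelling, 1 fell in the same comparison, the hepatic lipase Lipc (81.5 to 45.5 RPKM, −0.84 ± 0.17, adjusted p = 0.0161). Of 11 lipoprotein receptor genes, 1 rose there, Sdc1, a proteoglycan that binds remnant particles (43.0 to 94.5 RPKM, 1.05 ± 0.28, adjusted p = 0.0488). Without library 4, Lipc was called (−0.91, adjusted p = 0.0416) and Sar1b (−0.38, 0.146) and Sdc1 (1.21, 0.086) were not. Median log2 fold changes of those 3 lists at 150 µg/d in KO were 0.06, −0.28 and 0.09, beside −0.04 over all genes.

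The contrasts averaged over groups called a few more genes of these lists. Of all tested genes, 2.2% were called in the averaged contrast of genotypes and 4.52% in that of 150 µg/d. In KO against WT averaged over doses, Nr1d1, a clock repressor among the 21 regulators, was lower (−0.73 ± 0.18, limma adjusted p = 0.0457; 0.0831 without library 4), and 0 genes of the other 5 lists were called. At 150 µg/d averaged over genotypes, Mlxipl, a glucose-responsive regulator, was lower (−0.46 ± 0.10, adjusted p = 0.0136), as were Sort1, a sorting receptor of the assembly list (−0.42 ± 0.11, 0.0365), and Lipc (−0.66 ± 0.12, 0.00663), and Sdc1 was higher (0.89 ± 0.20, 0.015). Those 4 were also called without libraries 4 and 13.

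Other named genes of the pathway did not pass the test. At 150 µg/d in KO, Abca1, which lipidates apolipoprotein A-I, had a log2 fold change of −0.06 ± 0.09, and Lcat, which esterifies the cholesterol of HDL, −0.04 ± 0.10. Angptl4, an inhibitor of lipoprotein lipase, had −0.26 ± 0.38. Creb3l3, a transcription factor of apolipoprotein genes including Apoa4, was at 113 RPKM in uninfused WT and 109 RPKM in uninfused KO, where Apoa4 differed most (−0.06 ± 0.11). At 30 µg/d Creb3l3 was at 119.9 to 134.1 RPKM in WT and lower, at 92.08 to 116.7 RPKM, in KO. At 150 µg/d it was at 107.3 to 115.4 and 94.60 to 116.5 RPKM. KO against WT was not called at either dose. Without infusion, Apobec1, which edits the Apob message, had 0.27 ± 0.27 in KO against WT, and Apoc1, which lies next to Apoe, −0.24 ± 0.12.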

How the data were processed

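Per the submitters' processing notes, CASAVA 1.8.2 and FastQC were used with GRCm38 on polyA RNA libraries of liver. The aligner, counter and gene annotation: not given in the sources used here. The authors deposited RPKM per gene and library. Titles in the labels gave each library its group. The 9 genes, the lists and the rule for naming genes (called list members, up to 3 per list and comparison, a set of genes always given, some of which are not reported here, and the 3 genes most like a called gene) were chosen with earlier results of these data known. Genes with a mean of at least 0.5 RPKM (11590) were fitted with limma 3.58.1 in R 4.3.3 on log2(RPKM + 1), with 6 group means and 16 residual degrees of freedom, a mean-variance trend and Benjamini-Hochberg adjustment; SE and intervals are limma's. Fold changes on this scale understate those of low genes. The fit was tested on simulated data. Depth was estimated from the steps between low values, 65.97 to 71.6% of which came out whole within 0.1 read (chance 20%), too few for a count test; 1 read at 1 kb is worth 0.0564 to 0.0899 RPKM. Alternatives were another pseudocount, filter, scaling, weights and set of libraries.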

Additional observations from a re-analysis of the deposited data

Results flagged for a closer look

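In 36 groups of 4 libraries, 3 values stood far from the other libraries of their group by Dixon's test. Chance flags about 1 in 20 groups. The uninfused groups, with 3 libraries each, were not put to this test, so Apoa4 in library 4 (303.3 RPKM) could not be flagged. Apoa1 was at 6203 RPKM in library 13, the KO library at 30 µg/d that also stood apart in sex-biased genes, and at 7616 to 7667 RPKM in the rest of that group. Apob was at 579.8 RPKM in library 9 (WT at 30 µg/d), with 714.9 to 739.0 RPKM in the rest. Mttp was at 114.6 RPKM in library 11 (KO at 30 µg/d), with 80.06 to 84.61 RPKM in the rest. The cause of these values was not tested.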

How the results depend on the processing

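No paired analysis was possible because the running numbers of the libraries are unique. No scaling moved the median of all genes by over 0.1. For KO against WT without infusion, the count of called genes (1 of 9) was 0 with no filter or without libraries 4 and 13 or with the groups alone, 2 with array weights, and 0 to 1 when each library was left out. For 150 µg/d in KO (1) it was 0 under median-of-ratios scaling, without libraries 4 and 13 and with the groups alone, 2 with array weights, and 0 to 2 when each library was left out. For genotype averaged over doses it was 1 in every setting other than leaving out each library, which gave 1 to 2 (Apoc3 joined without library 18). For 150 µg/d averaged over genotypes (1) it was 0 with no filter, under the 3 other scalings and without libraries 4 and 13, 2 with a mean of at least 2 RPKM or robust eBayes, 3 with array weights, and 0 to 3 when each library was left out.

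Some directions turned, none of a called difference. Under quantile normalization Apoa1 at 30 µg/d in WT was −0.017, Apoc3 there 0.019, Apoa5 and Apob in KO against WT 0.037 and 0.13, Apoe at 30 µg/d in KO 0.0023 and Apob at 150 µg/d in KO −0.070. With 1 RPKM sum for all libraries, KO against WT gave 0.016 for Apoa2, 0.010 for Apoa5, 0.0027 for Apob and 0.0028 for Apoe. Median-of-ratios scaling gave 0.0049 for Apob and 0.019 for Apoe at 30 µg/d in KO. Array weights gave 0.064 for Apoa5 and 0.024 for Apoe at 30 µg/d in KO, and 0.090 and −0.0078 for Apob in KO against WT and at 150 µg/d in KO. Without libraries 4 and 13, 30 µg/d in KO gave 0.046 for Apoa1, 0.023 for Apoa5 and 0.029 for Apoe, and KO against WT 0.0029 for Apob. With the read-through row added, Apoc2, whose differences were not near 0, was 0.24 in KO against WT, 0.40 at 150 µg/d in WT, −0.085 and −0.11 at 30 and 150 µg/d in KO, and −0.040 in the difference between genotypes at 30 µg/d, from −0.64, −0.32, 0.84, 0.48 and 1.34 in that order.

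Leaving out each library gave ranges that cross 0. In KO against WT they were −0.070 to 0.065 (Apoa2), −0.20 to 0.18 (Apoa5), −0.16 to 0.12 (Apob) and −0.047 to 0.001 (Apoe). At 30 µg/d in WT they were −0.11 to 0.094 (Apoa1) and −0.021 to 0.37 (Apoa4). At 150 µg/d in WT they were −0.036 to 0.29 (Apoa5) and −0.047 to 0.21 (Apob). At 30 µg/d in KO they were −0.17 to 0.0058 (Apoa1), −1.22 to 0.11 (Apoa4), −0.25 to 0.12 (Apoa5), −0.15 to 0.11 (Apob) and −0.060 to 0.013 (Apoe), and at 150 µg/d in KO −0.13 to 0.21 (Apoa5) and −0.077 to 0.18 (Apob). The cause of these changes was not tested.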
